A study of Mus musculus with 36 samples.

Results

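Cultured mouse lung pericyte-like cells were compared after 6 h in uninjured bronchoalveolar lavage fluid (BALF, the wash of the airspaces of a lung that was not injured) and after 6 h in media only, by sequencing of their messenger RNA. The comparison took every library whose label gave uninjured BALF at 6 h (6 libraries, 3 from female and 3 from male cells) against every library whose label gave media only at 6 h (6 libraries, 3 female and 3 male), which are 12 of the 36 libraries of the study. Uninjured BALF was given as an equal mix with reduced-serum medium, and in media only buffered saline took the place of BALF, so the groups differed in lavage fluid against saline. All cells, in both groups, were grown out of lung digests on gelatin, depleted of cells with CD31, CD45 or CD326 and selected for the receptor PDGFRβ. The other 24 libraries hold injured BALF at 6 h, and all 3 treatments at 24 h. The labels give no strain, age or genotype, do not describe the injury, and leave unsaid whether the 3 libraries of a sex and treatment are separate animals, cultures or pools of BALF. Every p-value below therefore measures the spread between these libraries, which may be technical.

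Pericytes wrap capillaries and share the surface receptor PDGFRβ with fibroblasts and smooth muscle, and cultured lung stromal cells of this kind are known to answer inflammatory and oxidative signals with secreted chemokines and cytokines. Lavage fluid of a healthy lung carries surfactant lipids, plasma and epithelial proteins and products of resident macrophages. NF-kB is a family of transcription factors that turns on chemokine and cytokine genes together with its own inhibitors. NRF2 is a transcription factor that turns on glutathione and antioxidant genes when cells meet oxidants or electrophiles. Retinoic acid, made from vitamin A, acts through the receptors RAR and switches on its own receptor gene Rarb and the enzymes that remove it.

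The 12 libraries held 21284597 to 29797963 counts each. In all 4 groups of treatment and sex, libraries numbered 1 and 2 were closest to each other, with a coefficient of variation between them of 6.32 to 11.5%, against 16.5 to 27.7% between either and the library numbered 3. Pericyte markers had counts for 14 of 15 listed genes (Higd1b was at 0 in all 12 libraries), and their summed level lay at 1490 to 2030 CPM in uninjured BALF and 1690 to 2660 CPM in media, CPM being the count scaled to the same total in every library. Lung fibroblast markers summed to 8040 to 12000 CPM in uninjured BALF and 7910 to 13200 CPM in media, and smooth muscle markers to 10600 to 16800 CPM in uninjured BALF and 12000 to 19000 CPM in media. The summed levels of all 3 stromal lists were thus high in both groups. Col1a1 alone made up most of the fibroblast sum, and Acta2 a large part of the smooth muscle sum (levels of both below). The sums do not tell pericytes from fibroblasts or smooth muscle cells.

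Traces of other cell types were uneven among the libraries numbered 3. Macrophage markers, with counts for 11 of 11 genes, summed to 56.2 to 82.8 CPM in uninjured BALF and 13.6 to 72.4 CPM in media. The 13.6 CPM belonged to the male media library numbered 3, whose count of Lyz2, the lysozyme gene of macrophages, was 153 against 752 to 1329 in the other 5 media libraries. Of 10 tested macrophage markers 1 was called, Csf1r, the receptor for colony-stimulating factor 1, at 13.9 to 17.2 CPM in uninjured BALF (median 15.1) and 5.81 to 12 CPM in media (median 8.82), a log2 change of 0.76 ± 0.2 (edgeR adjusted p = 0.0089, or 0.066 with libraries 1 and 2 summed). That share is near the 10.6% of all tested genes that rose, so the count is not read as a result about macrophages. Mesothelial markers, with counts for 8 of 8 genes, summed to 48.3 to 231 CPM in uninjured BALF and 19.2 to 89.4 CPM in media, and the extremes were the male libraries numbered 3. Epithelial markers ran from 2.64 to 29 CPM in uninjured BALF and 0.993 to 4.36 CPM in media, with counts for 10 of 12 genes and with Sftpa1 and Nkx2-1 at 0 in all 12 libraries. The 29 CPM belonged to the male uninjured BALF library numbered 3 and was mostly the keratin genes Krt8 (12.5 CPM) and Krt18 (16 CPM). Epcam and Sftpc had 1 count each in that library, which also had the highest mesothelial sum. Endothelial markers, with counts for 10 of 10 genes, summed to 31.5 to 192 CPM in uninjured BALF and 10.3 to 160 CPM in media. Neutrophil markers stayed at 0.916 to 2.54 CPM in uninjured BALF and 0.813 to 3.47 CPM in media, with S100a9 and Ly6g at 0, and lymphocyte and erythroid markers summed to at most 0.338 CPM in any library. The part of these cells in the results was not tested, and in bulk libraries fewer cells of a type and less RNA per cell cannot be told apart.

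**Figure D1:**
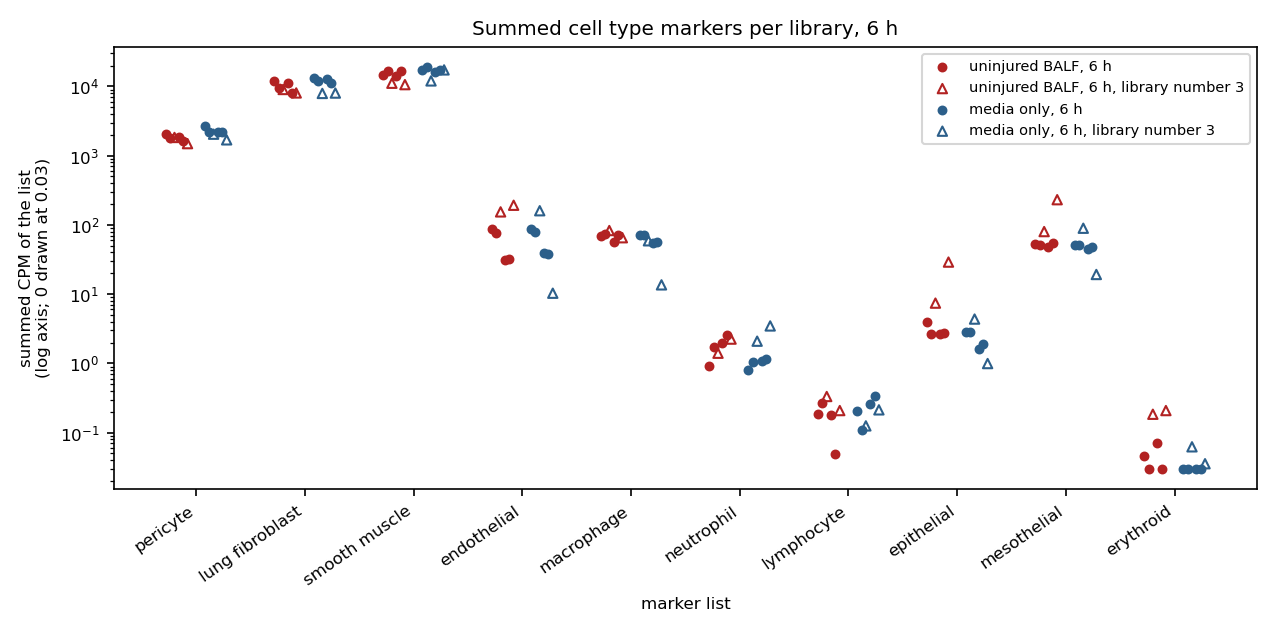
Summed level of 10 cell type marker lists in each library at 6 h (CPM, log axis, 0 drawn at 0.03), with uninjured BALF left and media right within each list and triangles for libraries numbered 3. Pericyte, fibroblast and smooth muscle sums overlapped between the groups. Mesothelial and epithelial sums were highest in a number 3 library of uninjured BALF (231 and 29 CPM), and most of the 29 CPM was Krt8 and Krt18. Macrophage and endothelial sums were lowest in a number 3 library of media (13.6 and 10.3 CPM).

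Uninjured BALF changed 2923 of 15901 tested genes at 6 h (18.4%), at an adjusted p under 0.05 in edgeR's quasi-likelihood test with Benjamini-Hochberg adjustment, which is used for every adjusted p below. Of these, 1679 genes rose (10.6%) and 1244 fell (7.82%), and 604 changed at least 2-fold (3.8%). With upper-quartile scaling in place of TMM the balance turned, to 1346 higher and 1642 lower. The median change over all tested genes was -0.01 on the log2 scale, the scale of all changes given below as uninjured BALF over media with an approximate standard error. With libraries 1 and 2 of each group added into 1 library, 1593 genes were called, and leaving out any 1 of the 12 libraries gave 2265 to 2829.

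Among called genes averaging at least 2 log2 CPM over all 36 libraries, the largest rises were in neutrophil chemokines, oxidant defence and cytokine genes. In order of size they were Cxcl3, Cxcl2, Slc7a11, Il11, Cxcl1, Nr4a3, Hmox1, Serpinb2, Penk and Procr, with log2 changes of 3.27 to 4.99. The largest falls were in Rspo2, Rarb, Cyp26b1, Rgs4, Tppp, Adra1d, Dhrs3, Igsf10, Ppm1e and Kif26b, with log2 changes of -1.8 to -3.49, and they include 3 genes of retinoic acid signalling and the Wnt amplifier R-spondin. These 20 genes were picked by the size of this change among such genes with the same direction in both sexes, so their separation is a description. Cxcl3 and Cxcl2 lay under that average in these 12 libraries and met it through libraries outside the comparison. Called genes under that average are left out of the ranking. Examples with larger rises are Acod1 (6 to 7.56) and Bpifa1 (5.31 to 6.22), as ranges with any 1 library left out. For 19 of the 20 no library of uninjured BALF overlapped any library of media, which held for 11% of all tested genes. The exception was Igsf10, an immunoglobulin-superfamily gene, at 0.582 to 5.25 CPM in uninjured BALF (median 2.38) and 5.18 to 30.6 CPM in media (median 7.98), whose change of -2.02 ± 0.69 (adjusted p = 0.04) lost its call when any of 9 libraries was left out (adjusted p up to 0.13). Those 9 were all but number 1 of male uninjured BALF and numbers 1 and 2 of male media.

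**Figure D2:**
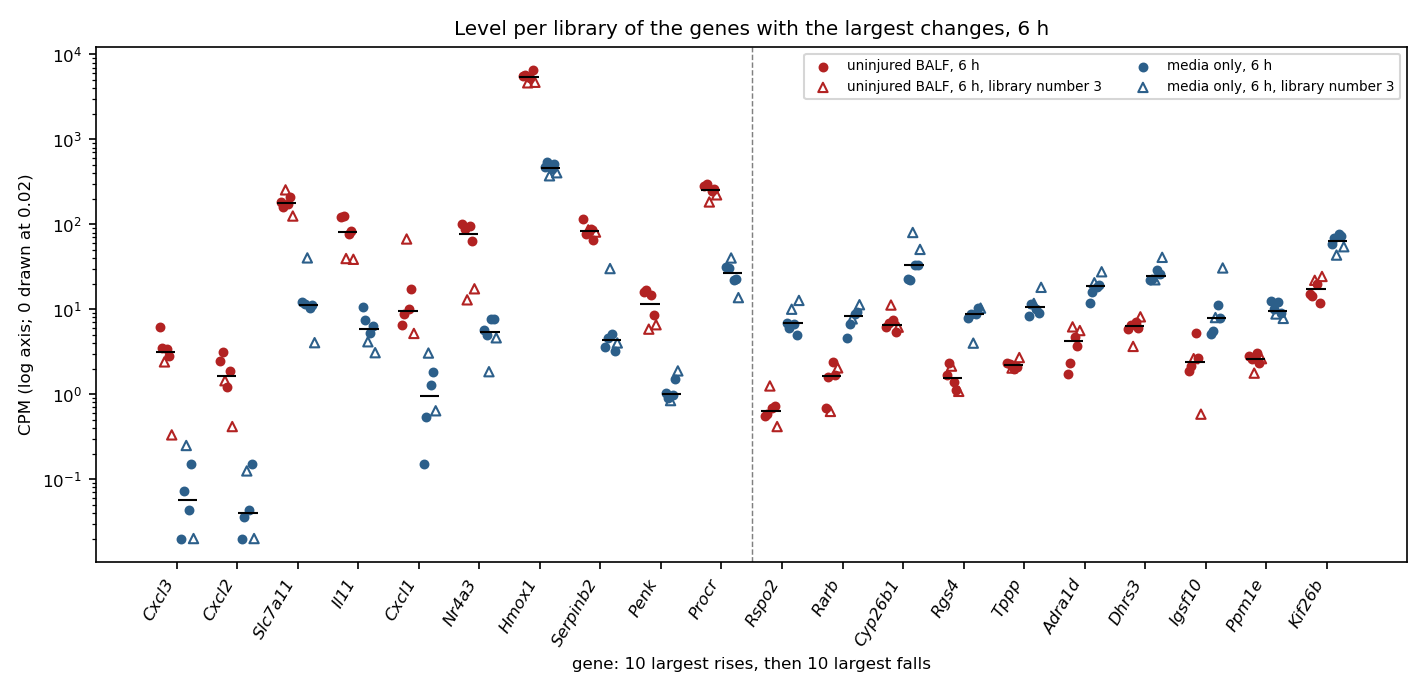
Level of the 10 genes with the largest rise and the 10 with the largest fall in each library at 6 h (CPM, log axis, 0 drawn at 0.02). The genes were picked among called genes averaging at least 2 log2 CPM over all 36 libraries. Uninjured BALF is left and media right, with black bars for medians and triangles for libraries numbered 3. Hmox1 sat at 4620 to 6470 CPM in uninjured BALF against 372 to 540 CPM in media, and Rspo2 at 0.416 to 1.25 CPM against 5.03 to 12.7 CPM.

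Chemokine genes rose. Of 18 tested genes for chemokines and colony-stimulating factors, 7 rose and 1 fell, with a median change of 1.01. The most changed were the genes of 3 neutrophil attractants that act on the receptor CXCR2 and lie in 1 cluster on chromosome 5 of build GRCm38, Cxcl3 at chr5:90786103-90789600, Cxcl1 at chr5:90891241-90893115 and Cxcl2 at chr5:90903871-90905938, all on the plus strand. Cxcl3 had 0.332 to 6.18 CPM in uninjured BALF (median 3.12) and 0 to 0.249 CPM in media (median 0.0575), a change of 4.99 ± 0.8 (adjusted p = 7.4e-05). Cxcl2 had 0.416 to 3.13 CPM in uninjured BALF (median 1.65) and 0 to 0.15 CPM in media (median 0.0395), a change of 4.59 ± 0.7 (adjusted p = 3.1e-05). Both were at 0 in 2 media libraries, and over all 6 media libraries Cxcl3 had 15 counts and Cxcl2 had 10 (439 and 244 in uninjured BALF), so the size of their fold changes is loosely set. Without number 3 of female media or number 2 of male media the changes were 5.71 and 5.74 for Cxcl3 and 5.27 and 5.34 for Cxcl2. Cxcl1 had 5.19 to 67.1 CPM in uninjured BALF (median 9.55) and 0.152 to 3.05 CPM in media (median 0.963), a change of 3.73 ± 0.82 (adjusted p = 0.0017). Its highest value, in the female uninjured BALF library numbered 3, stood far above the other 5 (5.19 to 17.4 CPM), and without that library the change was 2.82 (adjusted p = 0.012). Without the female media library numbered 3, the highest of media, it was 4.66. Cxcl1 was not called in male libraries alone (adjusted p = 0.11) or without the libraries numbered 2 (adjusted p = 0.078).

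The monocyte attractant Ccl2 followed the same order. It lay at 116 to 672 CPM in uninjured BALF (median 150) and at 15.1 to 41.6 CPM in media (median 31), a change of 2.79 ± 0.38 (adjusted p = 7.6e-06), again with its highest value in the female uninjured BALF library numbered 3. Cxcl16, a membrane-bound chemokine, rose by 0.89 ± 0.21 (adjusted p = 0.0037). Cxcl5 and Ccl7 were called at 2.55 ± 0.86 (adjusted p = 0.036) and 1.8 ± 0.48 (adjusted p = 0.0093), but Cxcl5 lost its call when any of 7 libraries was left out (adjusted p up to 0.093) and Ccl7 when the female uninjured BALF library numbered 3 was (adjusted p = 0.12). The 7 for Cxcl5 were numbers 1 and 2 of male and number 3 of female uninjured BALF, numbers 1 and 2 of female media and numbers 2 and 3 of male media. The 1 gene that fell was Cxcl12, which holds leukocytes and stem cells in tissues, at 339 to 822 CPM in uninjured BALF and 671 to 1340 CPM in media (-0.81 ± 0.23, adjusted p = 0.014, or 0.082 with libraries 1 and 2 summed). Csf2, the granulocyte-macrophage factor, did not pass (23 counts over the 6 uninjured BALF libraries and 3 over the 6 media libraries, adjusted p = 0.066). In this and the following paragraphs, members of a list other than its 2 lowest p-values are examples chosen after their values were seen. Each list count is to be read beside the 10.6% of all tested genes that rose and the 7.82% that fell.

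Because Cxcl1 and Cxcl2 turn on together and are known NF-kB targets, their promoters are shown. The windows run from 250 bases before to 50 bases after the RefSeq start on build GRCm38.p6, for Cxcl1 at chr5:90890995-90891294 and for Cxcl2 at chr5:90903649-90903948, both on the plus strand and given 5′ to 3′. Capitals mark matches on either strand to the NF-kB motif, searched as GGG, any 3 bases and TTCC.
Cxcl1: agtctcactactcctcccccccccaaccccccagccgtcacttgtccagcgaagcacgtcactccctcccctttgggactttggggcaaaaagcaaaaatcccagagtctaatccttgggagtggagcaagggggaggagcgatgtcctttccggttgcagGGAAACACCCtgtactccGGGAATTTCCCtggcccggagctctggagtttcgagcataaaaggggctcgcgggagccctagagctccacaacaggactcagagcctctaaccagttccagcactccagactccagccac
Cxcl2: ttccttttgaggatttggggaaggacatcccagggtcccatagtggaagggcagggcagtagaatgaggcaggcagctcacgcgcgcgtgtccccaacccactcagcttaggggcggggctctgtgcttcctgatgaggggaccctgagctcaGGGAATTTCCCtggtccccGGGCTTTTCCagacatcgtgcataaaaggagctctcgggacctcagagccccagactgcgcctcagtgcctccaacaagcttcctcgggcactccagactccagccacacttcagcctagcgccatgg
Each window held 3 matches. In both windows 2 of them overlapped in the 11 letters GGGAATTTCCC, read once on each strand, at -71 to -61 from the start of Cxcl1 and -97 to -87 from that of Cxcl2. Of 11 chemokine and colony-stimulating factor genes with a promoter in the reference table, 6 held the motif, as did 6 of 13 NF-kB pathway genes and 6.3% of all 27025 genes searched. A match is a description of letters and no evidence of binding.

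The NF-kB genes themselves rose. Of 16 tested subunits and feedback inhibitors, 10 rose and 0 fell, with a median change of 0.74, and the counts were 10 or 11 whichever library was left out and 10 with libraries 1 and 2 summed. Nfkb2, the precursor of the p52 subunit, lay at 89.6 to 135 CPM in uninjured BALF (median 103) and 45.1 to 57.3 CPM in media (median 52.4), a change of 1.03 ± 0.1 (adjusted p = 1.2e-07). Relb, the partner subunit of p52, lay at 20.4 to 32.7 CPM in uninjured BALF (median 22.9) and 9.2 to 11.1 CPM in media (median 10.6), a change of 1.21 ± 0.13 (adjusted p = 5e-07). Nfkb1 rose by 1.15 ± 0.14 and the inhibitors Nfkbia and Nfkbie by 1.17 ± 0.17 and 1.19 ± 0.18. Rela, the main activating subunit, had a change of 0.27 and did not pass.

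Cytokine genes of the IL-6 and IL-1 families rose too, with 8 of 17 tested genes higher, 0 lower and a median change of 0.92. Il11, whose product drives stromal matrix programmes, had 38.7 to 126 CPM in uninjured BALF (median 80.2) and 3.08 to 10.7 CPM in media (median 5.79), a change of 3.74 ± 0.4 (adjusted p = 3.1e-07). In uninjured BALF its lowest values were those of the libraries numbered 3 (39.5 CPM female, 38.7 CPM male), and these still stood above every media library. Clcf1, another ligand of the family, had 63.4 to 94.9 CPM in uninjured BALF (median 80.1) and 28.9 to 37.2 CPM in media (median 33.4), a change of 1.25 ± 0.16 (adjusted p = 2.3e-06). Il6 had 39.1 to 160 CPM in uninjured BALF (median 116) and 11.2 to 46.6 CPM in media (median 32.1), a change of 1.84 ± 0.41 (adjusted p = 0.0019). The groups overlapped for Il6, since the male uninjured BALF library numbered 3 lay under 2 media libraries. The leukaemia inhibitory factor gene Lif rose by 1.49 ± 0.4 (adjusted p = 0.0085), the alarmin Il33 by 2.82 ± 0.48 (adjusted p = 0.00013) and the epithelial-type cytokine Tslp by 1.41 ± 0.26 (adjusted p = 0.00032). The receptor genes Il6st, Lifr, Osmr and Il6ra had changes of -0.32, -0.32, 0.36 and 0.17 and did not pass. Il1rl1, the receptor gene of the Il33 product, was called at 2.41 ± 0.62 (adjusted p = 0.0066, or 0.16 with libraries 1 and 2 summed), with overlapping groups at 63.4 to 1410 CPM in uninjured BALF (median 401) and 36 to 385 CPM in media (median 133).

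Acute phase and interferon genes had 1 call each. Of 16 tested acute phase and innate defence genes 1 rose and 0 fell, with a median change of -0.01: Cd14, the endotoxin co-receptor, lay at 5.44 to 8.35 CPM in uninjured BALF (median 6.81) and 2.44 to 4.14 CPM in media (median 3.35), a change of 1.01 ± 0.2 (adjusted p = 0.00073). Of 22 tested interferon-stimulated genes 0 rose and 1 fell, Ifit2 (-0.38 ± 0.12, adjusted p = 0.027), with a median change of -0.12. The Ifit2 call was lost without number 2 of female media, numbers 1 and 3 of female uninjured BALF or number 3 of male uninjured BALF (adjusted p up to 0.057), and with libraries 1 and 2 summed (adjusted p = 0.084). Of 11 tested leukocyte adhesion genes 3 rose and 0 fell (1 rose with libraries 1 and 2 summed), among them Cd44, the hyaluronan receptor, at 862 to 1530 CPM in uninjured BALF (median 1200) and 282 to 619 CPM in media (median 550), a change of 1.16 ± 0.23 (adjusted p = 0.00058). Icam1 was called at 0.69 ± 0.19 (adjusted p = 0.013), but without the male uninjured BALF library numbered 3 its adjusted p was 0.068, and Cd44 was then the 1 adhesion gene called.

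Genes of the oxidant response rose together. Of 24 tested NRF2 targets 18 rose and 0 fell, with a median change of 1.18, against 10.6% of all tested genes that rose. The count was 16 to 19 without any 1 library and 14 with libraries 1 and 2 summed. Hmox1 (chr8:75093621-75100589, plus strand), the heme oxygenase that breaks down heme, had 4620 to 6470 CPM in uninjured BALF (median 5400) and 372 to 540 CPM in media (median 459), a change of 3.55 ± 0.34 (adjusted p = 7.1e-08). Slc7a11, the cystine importer that feeds glutathione synthesis, had 125 to 254 CPM in uninjured BALF (median 180) and 4.04 to 40.2 CPM in media (median 11.4), a change of 3.77 ± 0.63 (adjusted p = 9.2e-05). Its 40.2 CPM came from the female media library numbered 3, with the other 5 media libraries at 4.04 to 12.3 CPM. Gsr, which regenerates glutathione, had 46.5 to 70.5 CPM in uninjured BALF (median 53.1) and 20.5 to 24 CPM in media (median 22.5), a change of 1.35 ± 0.14 (adjusted p = 2.4e-07).

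Other NRF2 targets of glutathione and thioredoxin chemistry rose as well. Srxn1, sulfiredoxin, which repairs peroxiredoxins, averaged 816 ± 107 CPM in uninjured BALF and 103 ± 23.7 CPM in media (SD, n = 6 each), a change of 2.99 ± 0.34. Txnrd1, thioredoxin reductase, averaged 1580 ± 117 CPM in uninjured BALF and 459 ± 66 CPM in media (1.79 ± 0.2). Both subunits of the enzyme that starts glutathione synthesis rose, Gclm by 1.93 ± 0.29 and Gclc by 1.55 ± 0.25. Nqo1, the quinone reductase often used as an NRF2 readout, had a change of 1.01 ± 0.41 and did not pass (adjusted p = 0.084), with 181 to 437 CPM in uninjured BALF and 90.8 to 303 CPM in media. Me1, Htatip2, Gstm1, Tkt and Ephx1 did not pass either, with changes of -0.21 to 0.23.

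The promoters of Srxn1 and Gclm are shown because both rose and both hold the letters of the antioxidant response element through which NRF2 acts. The windows are chr2:152105274-152105573 and chr3:122245307-122245606, plus strand, from the same RefSeq table of build GRCm38.p6, 5′ to 3′, with capitals for matches on either strand to TGAC, any 3 bases and GC.
Srxn1: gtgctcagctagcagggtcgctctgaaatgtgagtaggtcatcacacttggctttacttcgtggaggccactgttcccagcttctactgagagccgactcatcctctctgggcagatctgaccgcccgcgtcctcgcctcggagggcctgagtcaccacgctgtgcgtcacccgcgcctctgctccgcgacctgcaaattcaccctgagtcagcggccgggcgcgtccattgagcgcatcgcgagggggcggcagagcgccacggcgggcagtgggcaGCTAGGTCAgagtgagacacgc
Gclm: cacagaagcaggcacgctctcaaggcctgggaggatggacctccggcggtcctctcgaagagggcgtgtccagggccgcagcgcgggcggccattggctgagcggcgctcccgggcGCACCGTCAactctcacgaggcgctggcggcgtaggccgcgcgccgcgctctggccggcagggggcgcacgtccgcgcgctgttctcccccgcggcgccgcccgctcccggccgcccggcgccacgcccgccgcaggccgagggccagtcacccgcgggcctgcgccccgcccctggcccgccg
Each held 1 match, on the minus strand, at 28 to 36 bases after the start of Srxn1 and at -134 to -126 from that of Gclm. Of 18 NRF2 list genes found in the table, 9 held the motif, against 14% of all genes. Me1 and Htatip2, which are among these 9, did not pass the test, and Slc7a11, which rose, did not hold these letters within its window.

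Of 16 tested direct scavengers of superoxide and peroxide 6 rose and 0 fell, with a median change of 0.13. Prdx6, a peroxiredoxin that also acts on surfactant phospholipid, had 357 to 498 CPM in uninjured BALF (median 415) and 203 to 290 CPM in media (median 249), a change of 0.77 ± 0.14 (adjusted p = 0.00037). Prdx5 had 175 to 264 CPM in uninjured BALF (median 231) and 150 to 185 CPM in media (median 165), a change of 0.43 ± 0.1 (adjusted p = 0.0027). The count of 6 dropped to 3 without the female media library numbered 1 or the female uninjured BALF library numbered 3, and to 2 with libraries 1 and 2 summed. Superoxide dismutase Sod2 rose by 0.52 ± 0.13 (adjusted p = 0.0053, or 0.073 with libraries 1 and 2 summed), while Sod1, Sod3 and the glutathione peroxidases Gpx1, Gpx3 and Gpx4 did not pass, with changes of -0.34 to 0.19.

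Protein-folding genes of the cytosol rose modestly. Of 15 tested cytosolic heat shock genes 9 rose and 0 fell, with a median change of 0.23. Hspa8, the constitutive chaperone, had 1720 to 2630 CPM in uninjured BALF (median 2190) and 1260 to 1640 CPM in media (median 1430), a change of 0.61 ± 0.11 (adjusted p = 0.00036). Hsph1, its nucleotide exchange partner, had 218 to 301 CPM in uninjured BALF (median 238) and 128 to 211 CPM in media (median 135), a change of 0.74 ± 0.12 (adjusted p = 0.00011), and the 211 CPM came from the female media library numbered 3. Of 16 tested proteasome subunits 3 rose, among them Psmd11 (0.68 ± 0.09, adjusted p = 9.9e-06). That count was 1 without number 1 of male media or number 2 of male uninjured BALF, and 7 without number 1 of male uninjured BALF, 1 with upper-quartile scaling and 5 in DESeq2. Of 15 tested endoplasmic reticulum chaperones 3 rose and 0 fell with a median change of 0.02, Hspa5 had a change of 0.12 and did not pass, and the count was 1 without number 1 of female or number 1 or 2 of male uninjured BALF and 0 with libraries 1 and 2 summed, while 2 were called lower with upper-quartile scaling and in DESeq2.

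Genes for making ribosomes rose almost as a block. Of 18 tested ribosome biogenesis genes 16 rose and 0 fell, with a median change of 0.52, and 14 to 17 were called without any 1 library and 15 with libraries 1 and 2 summed. Polr1b, a subunit of RNA polymerase I, had 38.4 to 53.5 CPM in uninjured BALF (median 44.3) and 19.7 to 24.8 CPM in media (median 23), a change of 0.98 ± 0.11 (adjusted p = 4.2e-07). Mybbp1a, a nucleolar protein, had 346 to 424 CPM in uninjured BALF (median 360) and 214 to 284 CPM in media (median 244), a change of 0.6 ± 0.1 (adjusted p = 0.0001). Ncl and Npm1, 2 abundant nucleolar proteins, had changes of 0.27 and 0.13 and did not pass. Myc, a transcription factor that drives these genes, rose by 0.94 ± 0.25 (adjusted p = 0.0074), averaging 96.8 ± 8.97 CPM in uninjured BALF and 50.3 ± 12.4 CPM in media (SD, n = 6 each).

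Cell division genes did not rise. Of 18 tested mitosis genes 0 rose and 4 fell, with a median change of -0.54 (1 fell with libraries 1 and 2 summed and 8 with upper-quartile scaling). Of 18 tested DNA replication genes 0 rose and 1 fell, with a median change of -0.17, and that call, of E2f1, was lost without number 3 of male media or number 1 of female uninjured BALF (adjusted p up to 0.071), and with libraries 1 and 2 summed (adjusted p = 0.1). Nusap1, a spindle protein, had 5.28 to 19.4 CPM in uninjured BALF (median 15) and 21.8 to 31 CPM in media (median 25.5), a change of -0.88 ± 0.23 (adjusted p = 0.0065). Kif11, the spindle motor, had 14 to 46.9 CPM in uninjured BALF (median 37.8) and 52.7 to 62.5 CPM in media (median 55.9), a change of -0.7 ± 0.21 (adjusted p = 0.019), with the 14 CPM in the male uninjured BALF library numbered 3 and the other 5 at 35.1 to 46.9 CPM. The number of mitosis genes called was 2 without number 3 of female media, of male media or of male uninjured BALF or without number 1 of female uninjured BALF, and 10 without number 2 of male uninjured BALF. With libraries 1 and 2 summed Kif11 was not called (adjusted p = 0.08).

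Genes of growth factor signalling rose in part. Of 22 tested epithelial and vascular growth factors 9 rose and 3 fell, with a median change of 0.36 (6 and 1 with libraries 1 and 2 summed). Of 5 listed ligands of the epidermal growth factor receptor, Areg rose by 2.62 ± 0.49 (adjusted p = 0.00038), Ereg by 1.59 ± 0.38 (adjusted p = 0.0034) and Hbegf by 1.27 ± 0.3 (adjusted p = 0.0031). Btc was called at 0.76 ± 0.25 (adjusted p = 0.035), a call lost without any 1 of 9 libraries (adjusted p up to 0.096; all but number 2 of female media and the libraries numbered 3 of uninjured BALF), and Tgfa had a change of -0.02 ± 0.38 and did not pass. Ereg averaged 378 ± 73.6 CPM in uninjured BALF and 125 ± 46.8 CPM in media (SD, n = 6 each). Fgf7, a mesenchymal growth factor for epithelium, had 132 to 324 CPM in uninjured BALF (median 268) and 119 to 164 CPM in media (median 138), a change of 0.82 ± 0.14 (adjusted p = 0.00017). Fgf10, which acts on the same epithelial receptor in lung development, fell by 1.00 on the log2 scale, at 1.92 to 3.92 CPM in uninjured BALF and 2.99 to 14 CPM in media (adjusted p = 0.0094, or 0.089 with libraries 1 and 2 summed). Nrg1, a ligand of the related ERBB receptors, also fell, at 7.96 to 16.9 CPM in uninjured BALF (median 10.5) and 17.5 to 26 CPM in media (median 18.6), a change of -0.86 ± 0.14 (adjusted p = 8.7e-05).

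Feedback genes of the MAP kinase pathway, which growth factors activate, rose for 8 of 16 tested genes and fell for 1, Spry1 (-1.18), with a median change of 0.48. Errfi1, an inhibitor of the epidermal growth factor receptor, had 99 to 464 CPM in uninjured BALF (median 373) and 31.5 to 116 CPM in media (median 70.8), a change of 2.1 ± 0.34 (adjusted p = 7.4e-05). Its libraries numbered 3 in uninjured BALF, at 103 CPM (female) and 99 CPM (male), were far under the other 4 (366 to 464 CPM) and within the media range. Dusp10, a MAP kinase phosphatase, had 36.5 to 98 CPM in uninjured BALF (median 71.3) and 16.1 to 30.5 CPM in media (median 26.5), a change of 1.42 ± 0.23 (adjusted p = 5.8e-05). The count of 8 became 3 or 4 when 1 of 7 libraries was left out, namely number 1 or 2 of either sex in uninjured BALF, number 3 of either sex in media or number 1 of male media, and 3 with libraries 1 and 2 summed.

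Among 18 tested immediate early transcription factors 5 rose and 1 fell, with a median change of 0.13. Fosl1, an AP-1 subunit, had 74 to 122 CPM in uninjured BALF (median 111) and 14.9 to 43.4 CPM in media (median 32.1), a change of 1.74 ± 0.33 (adjusted p = 0.00037). Maff, a small partner of NRF2 and AP-1, rose by 0.58 ± 0.1 (adjusted p = 0.00023). The fast-acting Fos, Egr1 and Jun had changes of -1.23, -0.12 and 0.15 and did not pass. Klf4 was the 1 gene called lower, and that call was lost without number 1 or 2 of either sex in media or number 3 of either sex in uninjured BALF (adjusted p up to 0.087), and with libraries 1 and 2 summed (adjusted p = 0.17).

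Orphan nuclear receptor and cAMP response genes rose for 6 of 13 tested genes and fell for 0, with a median change of 0.37. Nr4a3, an orphan nuclear receptor induced by many stimuli, had 12.9 to 101 CPM in uninjured BALF (median 76) and 1.84 to 7.72 CPM in media (median 5.38), a change of 3.58 ± 0.52 (adjusted p = 1.8e-05). In uninjured BALF the libraries numbered 3 were the lowest, at 12.9 CPM (female) and 17.4 CPM (male), against 63.2 to 101 CPM in the other 4. Crem, which encodes cAMP response modulators, had 15.4 to 33.9 CPM in uninjured BALF (median 30.6) and 7.57 to 10.9 CPM in media (median 9.34), a change of 1.51 ± 0.17 (adjusted p = 4.2e-07). Nr4a2 rose by 1.19 ± 0.22 (adjusted p = 0.00034) and Nr4a1 had a change of 0.08 ± 0.58 and did not pass. Penk, which encodes enkephalin precursors, had 5.83 to 16.8 CPM in uninjured BALF (median 11.7) and 0.841 to 1.88 CPM in media (median 1), a change of 3.28 ± 0.51 (adjusted p = 3.6e-05).

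**Figure D3:**
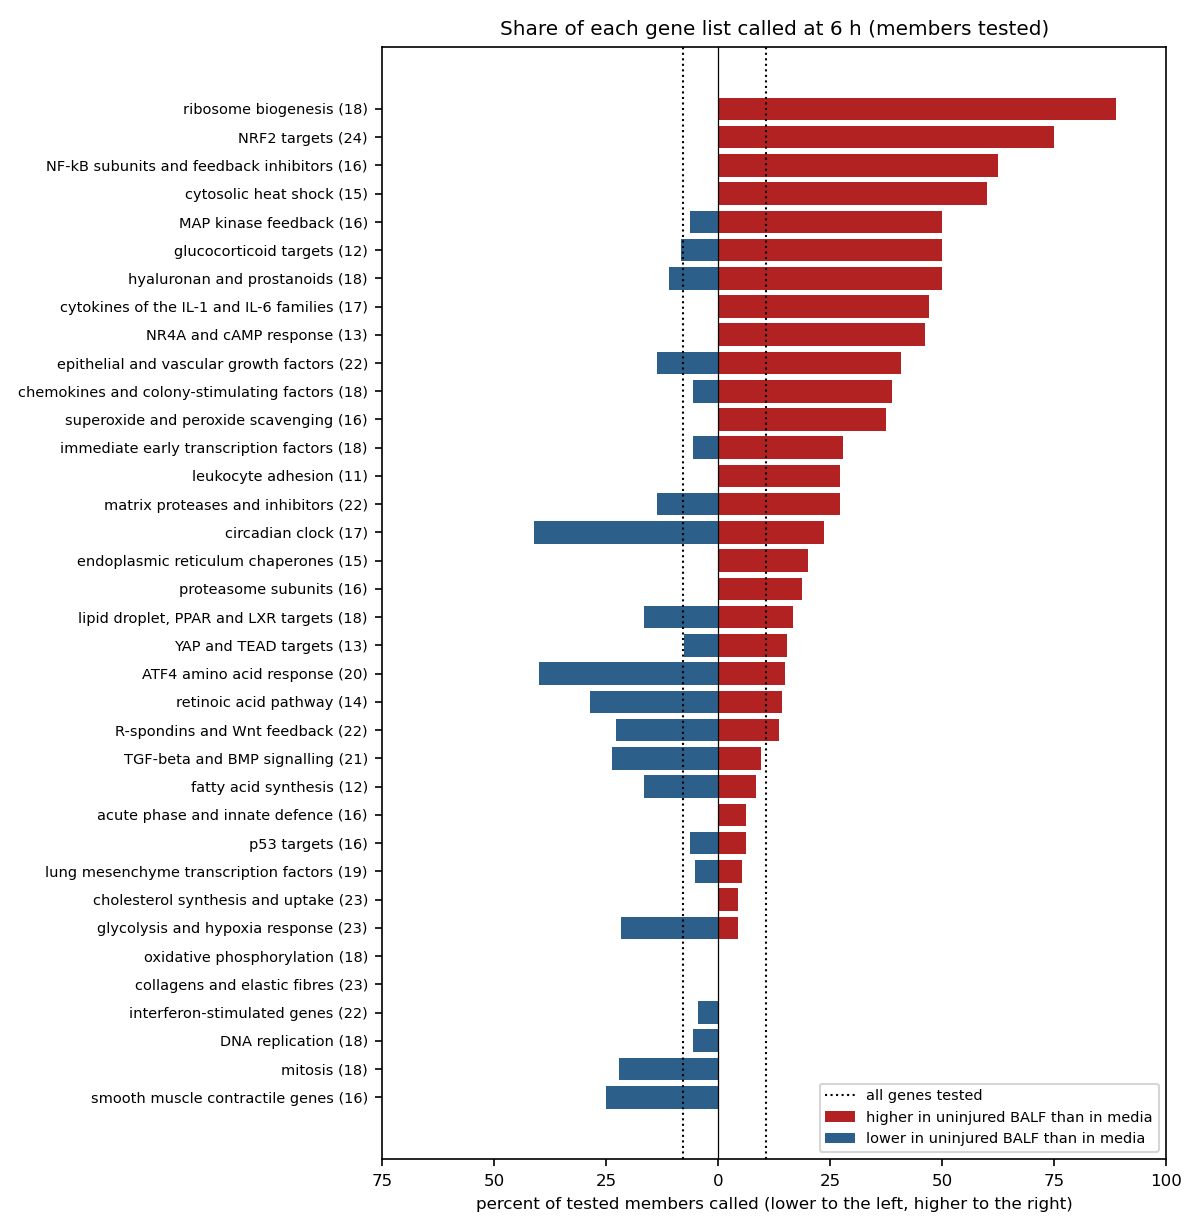
Share of tested members of each of 36 gene lists that were called at 6 h (adjusted p under 0.05), with the number tested in brackets, bars to the right for genes higher in uninjured BALF than in media and to the left for genes lower, and dotted lines for all tested genes (10.6% higher, 7.82% lower). Ribosome biogenesis (16 of 18), NRF2 targets (18 of 24) and NF-kB genes (10 of 16) had the longest bars to the right, and the circadian clock (7 of 17) and ATF4 (8 of 20) lists the longest to the left.

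Genes of clotting control, prostanoids and matrix turnover were also changed. Serpinb2, the plasminogen activator inhibitor type 2 gene, had 65.9 to 115 CPM in uninjured BALF (median 83.4) and 3.19 to 30.1 CPM in media (median 4.29), a change of 3.54 ± 0.49 (adjusted p = 7.8e-06), with the 30.1 CPM in the female media library numbered 3 and the other 5 at 3.19 to 5.15 CPM, and without that library the change was 4.37. Procr, the endothelial protein C receptor gene, had 183 to 297 CPM in uninjured BALF (median 254) and 13.7 to 40.1 CPM in media (median 26.4), a change of 3.27 ± 0.39 (adjusted p = 1.3e-06). Of 18 tested hyaluronan and prostanoid genes 9 rose and 2 fell, with a median change of 0.84 (5 and 1 with libraries 1 and 2 summed). The prostaglandin E synthase Ptges rose by 1.06 ± 0.21 (adjusted p = 0.00065), the kinin receptor Bdkrb1 by 1.91 ± 0.34 (adjusted p = 0.00018) and the hyaluronan synthase Has1 by 2.44 ± 0.43 (adjusted p = 0.00018). The falls were Cemip and Hyal1, and Hyal1 was not called without number 1 of female media, number 3 of male media or number 2 of male uninjured BALF (adjusted p up to 0.075). Ptgs2, inducible cyclooxygenase, lay at 1920 to 3540 CPM in uninjured BALF and 537 to 1480 CPM in media (1.39 ± 0.42, adjusted p = 0.021), a call lost without the female or the male media library numbered 3 (adjusted p up to 0.065).

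Hyaluronan breakdown genes moved in both directions. Cemip, which takes up and cuts hyaluronan, had 911 to 1520 CPM in uninjured BALF (median 1240) and 2170 to 3520 CPM in media (median 2880), a change of -1.2 ± 0.14 (adjusted p = 8.8e-07). Hyal2, a membrane hyaluronidase, had 46.5 to 58.6 CPM in uninjured BALF (median 51.1) and 30.9 to 38.7 CPM in media (median 33), a change of 0.63 ± 0.09 (adjusted p = 6.5e-06). Of 22 tested matrix proteases and inhibitors 6 rose and 3 fell, with a median change of 0.14 (2 and 3 with libraries 1 and 2 summed). The aggrecan-cutting protease Adamts5 had 54.8 to 94.6 CPM in uninjured BALF (median 66.8) and 178 to 359 CPM in media (median 243), a change of -1.77 ± 0.17 (adjusted p = 1.1e-07). Adamts1 fell by 1.17 on the log2 scale (adjusted p = 7.2e-06), and Timp1, a protease inhibitor on the same list, rose by 0.92 ± 0.18 (adjusted p = 0.00052). Of 23 tested collagen and elastic fibre genes 0 rose and 0 fell in edgeR (0 at an unadjusted p under 0.05), and 0 were called in DESeq2. Col1a1, of the main fibrillar collagen, lay at 7470 to 11400 CPM in uninjured BALF (median 8600) and 7300 to 12600 CPM in media (median 11000), a change of -0.19 ± 0.2 (adjusted p = 0.55).

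Retinoic acid genes were among those that fell most. Of 14 tested pathway genes 4 fell and 2 rose, with a median change of -0.02. Rarb (chr14:16430839-16819156, minus strand), the receptor gene that retinoic acid itself induces, had 0.627 to 2.37 CPM in uninjured BALF (median 1.63) and 4.57 to 11.3 CPM in media (median 8.29), a change of -2.49 ± 0.33 (adjusted p = 5e-06). Cyp26b1, which oxidizes retinoic acid, had 5.37 to 11.2 CPM in uninjured BALF (median 6.58) and 21.9 to 80 CPM in media (median 33.1), a change of -2.48 ± 0.43 (adjusted p = 0.00016). Dhrs3, which turns retinaldehyde back to retinol, had 3.65 to 8.14 CPM in uninjured BALF (median 6.26) and 22.2 to 40.8 CPM in media (median 24.3), a change of -2.12 ± 0.32 (adjusted p = 2.8e-05). All 3 are textbook genes that retinoic acid switches on. No library of uninjured BALF reached the lowest library of media for any of them. They were picked for the size of their fall, so this separation is a description, and 11% of all tested genes had groups without overlap. Aldh1a3, which makes retinoic acid, rose by 1.66 ± 0.27 (adjusted p = 6.5e-05), and Rara, the most general receptor, had a change of -0.02 and did not pass. The other called rise, Crabp2 (1.39 ± 0.49, adjusted p = 0.048), was lost with libraries 1 and 2 summed (adjusted p = 0.1), with upper-quartile scaling (adjusted p = 0.062) and when any 1 of 9 libraries was left out (adjusted p up to 0.25), that is all but number 3 of female media and numbers 1 and 2 of male uninjured BALF.

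The Rarb promoter is shown because its response element is the classical one of retinoic acid receptors. The window is chr14:16575427-16575726 on the minus strand of build GRCm38.p6, from RefSeq, 5′ to 3′, with capitals for the direct repeat of this receptor, searched on both strands as NGNTCA, any 5 bases and NGNTCA again, where N is any base.
Rarb: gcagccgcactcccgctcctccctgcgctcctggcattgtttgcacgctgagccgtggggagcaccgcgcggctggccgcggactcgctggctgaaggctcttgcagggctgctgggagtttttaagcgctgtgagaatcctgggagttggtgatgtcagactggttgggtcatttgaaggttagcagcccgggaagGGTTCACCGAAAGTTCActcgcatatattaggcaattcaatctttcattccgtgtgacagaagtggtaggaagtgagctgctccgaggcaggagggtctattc
The match lay on the gene's own strand at -53 to -37 from the start. These letters were held by 2 of the 11 list genes found there, Rarb and Cyp26a1, against 1% of all genes, and Cyp26a1 was not among the tested genes.

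Of 22 tested R-spondins and Wnt feedback genes 5 fell and 3 rose, with a median change of -0.39 (2 and 2 with libraries 1 and 2 summed), where 7.82% of all tested genes fell and 10.6% rose. Rspo2 (chr15:43020794-43170826, minus strand), a secreted amplifier of Wnt signalling, had 0.416 to 1.25 CPM in uninjured BALF (median 0.632) and 5.03 to 12.7 CPM in media (median 6.87), a change of -3.49 ± 0.52 (adjusted p = 2.2e-05). Rspo3 fell by 1.02 on the log2 scale (adjusted p = 0.005) and Wnt4 by 1.5 (adjusted p = 0.01), and neither was called with libraries 1 and 2 summed (adjusted p = 0.055 and 0.085). Wnt11 had 10.6 to 16.2 CPM in uninjured BALF (median 12.2) and 2.84 to 5.7 CPM in media (median 4.77), a change of 1.5 ± 0.18 (adjusted p = 1.3e-06), and Wnt2 rose by 1.77 ± 0.44 (adjusted p = 0.005, or 0.054 with libraries 1 and 2 summed). Axin2 and Lef1, common readouts of Wnt signalling through β-catenin, had changes of 0.15 and 0.13 and did not pass.

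Of 21 tested TGF-beta and BMP genes 5 fell and 2 rose, with a median change of -0.13, so the share that rose was near the 10.6% of all tested genes. The count of falls was 1 with libraries 1 and 2 summed and 8 with upper-quartile scaling. Id2, an inhibitor of differentiation that BMP induces, had 11.6 to 24.8 CPM in uninjured BALF (median 16.7) and 54.8 to 63.3 CPM in media (median 58.4), a change of -1.78 ± 0.21 (adjusted p = 1.2e-06). Bambi, a decoy receptor, had 5.27 to 8.63 CPM in uninjured BALF (median 6.99) and 9.57 to 16.1 CPM in media (median 12.7), a change of -0.88 ± 0.21 (adjusted p = 0.0033). The BMP inhibitor Smad6 fell by 0.91 on the log2 scale and Id3 by 0.64, whereas Id1 had a change of -0.13 and did not pass. Tgfb1 rose by 0.96 ± 0.25 (adjusted p = 0.0065) and the activin subunit Inhba by 1.4 ± 0.34 (adjusted p = 0.004). With libraries 1 and 2 summed, Bambi, Smad6 and Id3 were not called (adjusted p = 0.062, 0.16 and 0.057).

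**Figure D4:**
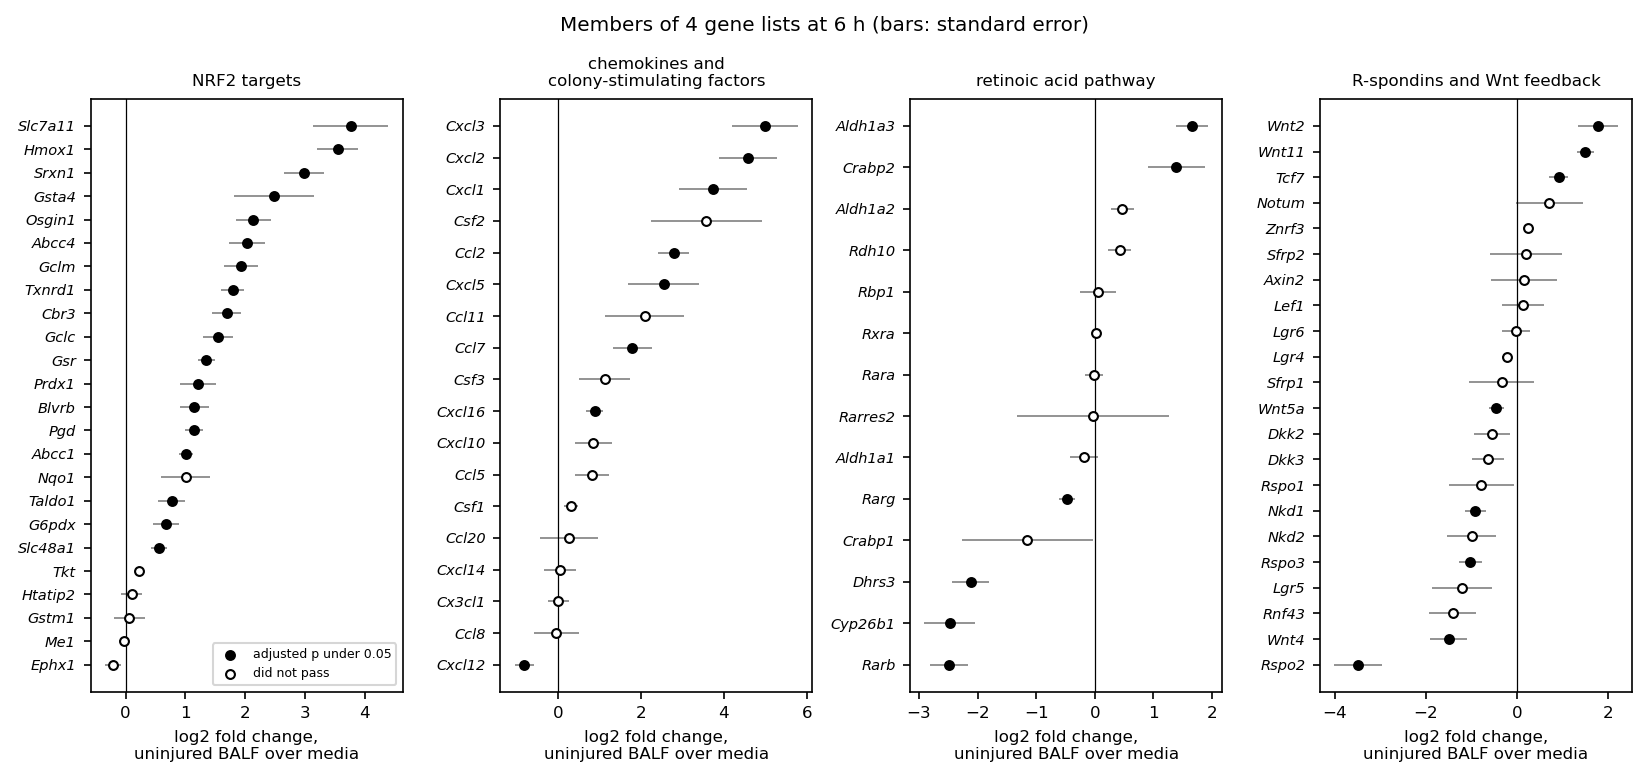
Log2 fold change of uninjured BALF over media at 6 h (points, with standard errors as bars) for the tested members of 4 gene lists, filled where the adjusted p was under 0.05. NRF2 targets (18 of 24 rose) and chemokines and colony-stimulating factors (7 of 18 rose) lay mostly right of 0, while Rarb, Cyp26b1, Dhrs3 and Rspo2 were the lowest points of the retinoic acid and R-spondin lists.

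Stress and nutrient genes were lower in part. Of 20 tested ATF4 amino acid response genes 8 fell and 3 rose, with a median change of -0.23 (4 and 1 with libraries 1 and 2 summed, 8 and 1 with upper-quartile scaling). Chac1, which degrades glutathione, had 4.72 to 11.4 CPM in uninjured BALF (median 9.38) and 18.4 to 29.3 CPM in media (median 23.7), a change of -1.41 ± 0.19 (adjusted p = 6.4e-06). Ddit3, the stress factor CHOP, had 23.8 to 36.4 CPM in uninjured BALF (median 32.3) and 50.4 to 70.9 CPM in media (median 59.3), a change of -0.9 ± 0.16 (adjusted p = 0.00015). Trib3 fell by 1.79 on the log2 scale (adjusted p = 0.0011), while Asns, a common ATF4 readout, had a change of -0.15 and did not pass. The 8 became 5 without number 3 of female media, number 1 of male media or number 3 of either sex in uninjured BALF, and the 3 became 1 without number 3 of male media or number 2 of male uninjured BALF. The gene among the 3 that was still called was the inflammatory transcription factor Cebpb (1.18).

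Of 23 tested glycolysis and hypoxia genes 5 fell and 1 rose, with a median change of -0.21 (3 and 0 with libraries 1 and 2 summed, 8 and 1 with upper-quartile scaling). The hypoxia-induced genes led the falls: Ankrd37 had 0.848 to 3.03 CPM in uninjured BALF (median 1.26) and 3.58 to 7.16 CPM in media (median 5.42), a change of -1.9 ± 0.24 (adjusted p = 3.2e-06). Bnip3, a mitophagy receptor, had 25 to 39.6 CPM in uninjured BALF (median 33.9) and 55 to 97.4 CPM in media (median 83.5), a change of -1.25 ± 0.25 (adjusted p = 0.00088). Narf, which encodes a prelamin-binding nuclear protein, is not on this list and was named for its time difference. Its level was 5.54 to 10.5 CPM in uninjured BALF (median 7.63) and 22.9 to 31.2 CPM in media (median 25.5), a change of -1.77 ± 0.13 (adjusted p = 6.9e-10). The glycolysis enzymes Pgk1, Ldha, Eno1 and Aldoa had changes of -0.23 to -0.03 and did not pass, and the glucose importer Slc2a1 rose by 0.59 ± 0.13 (adjusted p = 0.0018, or 0.057 with libraries 1 and 2 summed). Of 18 tested oxidative phosphorylation genes 0 were called in edgeR (1 at an unadjusted p under 0.05) and 1 in DESeq2.

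Of 18 tested lipid droplet, PPAR and LXR genes 3 rose and 3 fell, with a median change of -0.08. These counts were 2 and 2 with libraries 1 and 2 summed, and 2 and 4 with upper-quartile scaling. Beside each list of this paragraph stand the 10.6% of all tested genes that rose and the 7.82% that fell. Angptl4, a lipoprotein lipase inhibitor and PPAR target, had 123 to 227 CPM in uninjured BALF (median 183) and 20.7 to 40.5 CPM in media (median 29.8), a change of 2.62 ± 0.2 (adjusted p = 1.2e-09). Ppard, the receptor PPARδ, had 40.4 to 61.7 CPM in uninjured BALF (median 52.4) and 22.5 to 31.7 CPM in media (median 29.8), a change of 0.84 ± 0.11 (adjusted p = 3e-06). Plin4, a lipid droplet coat protein, fell by 2.14 on the log2 scale (adjusted p = 7.8e-06). Of 23 tested cholesterol synthesis and uptake genes 1 rose, Pmvk, at 11 to 37.5 CPM in uninjured BALF (median 30) and 8.33 to 13.5 CPM in media (median 9.09), a change of 1.35 ± 0.22 (adjusted p = 8.9e-05). Its libraries numbered 3 were the lowest of uninjured BALF, at 13.4 CPM (female) and 11 CPM (male). The count was 2 without number 1 of female media and 3 without number 3 of female uninjured BALF. Of 12 tested fatty acid synthesis genes 1 rose and 2 fell, among them Elovl5, which elongates polyunsaturated fatty acids (-0.31 ± 0.07, adjusted p = 0.0035), and Acly, which supplies acetyl-CoA (0.3 ± 0.08, adjusted p = 0.0086, or 0.09 with libraries 1 and 2 summed). The count of rises was 2 without number 2 of female media, number 3 of male media or number 3 of male uninjured BALF, and with libraries 1 and 2 summed 0 rose and 1 fell. The other fall, Fads2, was lost when any 1 of 8 libraries was left out (adjusted p up to 0.1), that is all but numbers 1 and 3 of female media and numbers 1 and 2 of male uninjured BALF.

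Clock genes moved in both directions. Of 17 tested genes 7 fell and 4 rose, with a median change of -0.1. Per1, a clock gene that cAMP and glucocorticoids also induce, had 34.7 to 46.7 CPM in uninjured BALF (median 42.9) and 15.3 to 27.2 CPM in media (median 22.4), a change of 0.93 ± 0.15 (adjusted p = 6.3e-05). Rora, a clock activator, had 18.7 to 25 CPM in uninjured BALF (median 20.6) and 25.6 to 44.9 CPM in media (median 33.6), a change of -0.67 ± 0.11 (adjusted p = 8.9e-05). Arntl, the core activator BMAL1, rose by 1.02 ± 0.18 (adjusted p = 0.00023), and the output gene Dbp fell by 1.54 on the log2 scale (adjusted p = 0.0042). Of 12 tested glucocorticoid targets 6 rose and 1 fell, and Per1, Errfi1 and Angptl4 among the 6 also stand in other lists. Tsc22d3 and Fkbp5, further targets on the list, had changes of -0.06 and 0.02 and did not pass. Metallothionein Mt2 rose by 1.45 ± 0.26 (adjusted p = 0.00018) and the kinase gene Sgk1 by 1.13 ± 0.22 (adjusted p = 0.00051). The 1 fall, Ddit4, was not called without number 3 of female media, number 1 or 2 of female uninjured BALF or number 2 of male uninjured BALF (adjusted p up to 0.072), nor with libraries 1 and 2 summed (adjusted p = 0.1).

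Most of the tested contractile and pericyte genes did not pass. Of 16 tested smooth muscle contractile genes 0 rose and 4 fell, with a median change of -0.31 (2 fell with libraries 1 and 2 summed). Lmod1, an actin nucleator of smooth muscle, had 114 to 148 CPM in uninjured BALF (median 135) and 181 to 281 CPM in media (median 251), a change of -0.86 ± 0.21 (adjusted p = 0.0039). Mylk, the kinase of the myosin light chain, had 105 to 186 CPM in uninjured BALF (median 162) and 236 to 293 CPM in media (median 276), a change of -0.79 ± 0.2 (adjusted p = 0.0049). Acta2, smooth muscle actin, had 5860 to 9730 CPM in uninjured BALF (median 8210) and 7150 to 11300 CPM in media (median 9450), a change of -0.24 ± 0.18 that did not pass (adjusted p = 0.38).

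Pdgfrb, the receptor by which the cells had been selected, had 392 to 612 CPM in uninjured BALF (median 483) and 556 to 820 CPM in media (median 757), a change of -0.58 ± 0.16 (adjusted p = 0.013). The 556 CPM belonged to the female media library numbered 3, and the call held without any 1 library but not with libraries 1 and 2 summed (adjusted p = 0.13). It was the 1 pericyte marker called of 13 tested, and their median change was -0.36. That share is near the 7.82% of all tested genes that fell, so the count is not read as a result about pericyte markers. Cspg4, the proteoglycan NG2 of pericytes, had 88.5 to 263 CPM in uninjured BALF (median 185) and 64.1 to 192 CPM in media (median 155), a change of 0.42 ± 0.35 that did not pass (adjusted p = 0.46). Rgs4 and Adra1d are known from vascular smooth muscle. Rgs4, which curbs G protein signals, had 1.08 to 2.32 CPM in uninjured BALF (median 1.55) and 3.99 to 10.4 CPM in media (median 8.8), a change of -2.38 ± 0.37 (adjusted p = 4.7e-05). Adra1d, an adrenergic receptor, had 1.74 to 6.2 CPM in uninjured BALF (median 4.21) and 11.9 to 27.6 CPM in media (median 18.8), a change of -2.22 ± 0.35 (adjusted p = 4.3e-05).

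The other large falls were in cytoskeletal and signalling genes. Tppp, a microtubule-binding protein, had 1.98 to 2.7 CPM in uninjured BALF (median 2.19) and 8.43 to 18.1 CPM in media (median 10.7), a change of -2.35 ± 0.33. Ppm1e, a phosphatase, had 1.77 to 3.06 CPM in uninjured BALF (median 2.6) and 7.8 to 12.5 CPM in media (median 9.46), a change of -1.99 ± 0.41. Kif26b, a kinesin of Wnt5a signalling, had 12 to 24.3 CPM in uninjured BALF (median 17.5) and 43.4 to 77.1 CPM in media (median 63.9), a change of -1.8 ± 0.26. Of 16 tested p53 targets 1 rose (Aen) and 1 fell (Gdf15), and of 13 tested YAP and TEAD targets 2 rose and 1 fell. Of 19 tested lung mesenchyme transcription factors 1 rose (Foxf2) and 1 fell (Hoxa5). Over all tested genes 10.6% rose and 7.82% fell, so these counts are not read as results about the 3 lists. The YAP target Nuak2, a kinase, rose by 1.05 ± 0.14 (adjusted p = 6.4e-06). Each of the other 6 calls in these 3 lists was lost without at least 3 libraries taken singly (adjusted p up to 0.11), and each of the 12 libraries ended at least 1 of them. None of the 6 was called with libraries 1 and 2 summed, and 3 p53 targets were called lower with upper-quartile scaling and in DESeq2.

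The effect of uninjured BALF was not found to differ between female and male cells. The test of the female minus male difference called 0 of 15901 genes in edgeR (168 at an unadjusted p under 0.05) and 0 in DESeq2 (159 at an unadjusted p under 0.05). With 3 libraries per sex and treatment this does not show that the sexes act alike. Cxcl2 changed by 5.11 in female and 4.07 in male cells, and Hmox1 by 3.52 in female and 3.58 in male cells.

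Fewer genes were called at 24 h. Uninjured BALF at 24 h, against media at 24 h, changed 138 genes (0.868%), and 70 of them were called in the same direction at 6 h, which is 50.7% of the 24 h calls and 2.39% of the 6 h calls. Number 1 of female media at 24 h stood apart, with 3.87% mitochondrial counts, against 1.2 to 2.05% in the 12 libraries at 6 h. It also had the lowest TMM factor (0.874), and its part in the 138 was not tested. The test of the difference itself, 24 h effect minus 6 h effect, called 312 genes (1.96%). It contains the 6 h effect with a minus sign, so for genes changed at 6 h a sign opposite to that change is built into it and is not read as a result. The count was 194 without number 3 of male media at 6 h, 206 or 207 without number 1 of female or male uninjured BALF at 6 h, 198 or 201 without number 1 or 2 of male media at 24 h, and 182 or 194 without number 3 of female or male uninjured BALF at 24 h. It rose to 398 or 461 without number 1 or 2 of female media at 24 h, and to 403 without number 2 of female uninjured BALF at 24 h. It was 3 with libraries 1 and 2 summed.

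Retinoic acid, immediate and oxidant genes illustrate the time difference. Nr4a3 changed by 3.58 at 6 h and 0.11 at 24 h (adjusted p of the difference = 0.0086), and Rarb by -2.49 at 6 h and 0.38 at 24 h (adjusted p = 0.0008). Hmox1 changed by 3.55 at 6 h and 1.66 at 24 h, called at both times, and the difference was called too (adjusted p = 0.021). Of the 20 genes picked above for the size of their 6 h change, all 20 had a 24 h value nearer 0 and 9 a called difference. For genes picked for their size at 6 h a smaller second value is partly a matter of that choice. Angptl4 stayed high, at 1.96 ± 0.19 at 24 h (adjusted p = 1.2e-06), and its difference was not called (adjusted p = 0.21).

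Genes with the lowest p in this test were changed at 6 h in either direction. Nmnat2, an enzyme of NAD synthesis, had 16.1 to 62 CPM in uninjured BALF at 6 h (median 39) and 1.95 to 6.09 CPM in media at 6 h (median 4.7), a change of 3.18 at 6 h and 0.54 at 24 h (adjusted p of the difference = 0.00065). Stk10, a serine/threonine kinase, changed by 1.34 at 6 h and -0.02 at 24 h, and Jcad, a junction protein, by 0.82 at 6 h and -0.09 at 24 h. The transferrin receptor gene Tfrc had a change of -0.45 at 6 h, a call lost without 8 of the 12 libraries taken singly (adjusted p up to 0.097; all but number 2 of female media and the libraries numbered 3 of male media and of both sexes of uninjured BALF), and 0.98 at 24 h, with an adjusted p of the difference of 0.00065. Cholesterol synthesis and uptake genes were the list with the most called differences, 14 of 23. In this list 1 gene was called higher at 6 h and 17 at 24 h, with median changes of -0.05 at 6 h and 0.75 at 24 h. Over all tested genes 1.96% had a called difference, and 10.6% were called higher at 6 h and 0.516% at 24 h. With libraries 1 and 2 summed, 3 differences were called over all genes, so at most 3 of the 14 could remain.

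**Figure D5:**
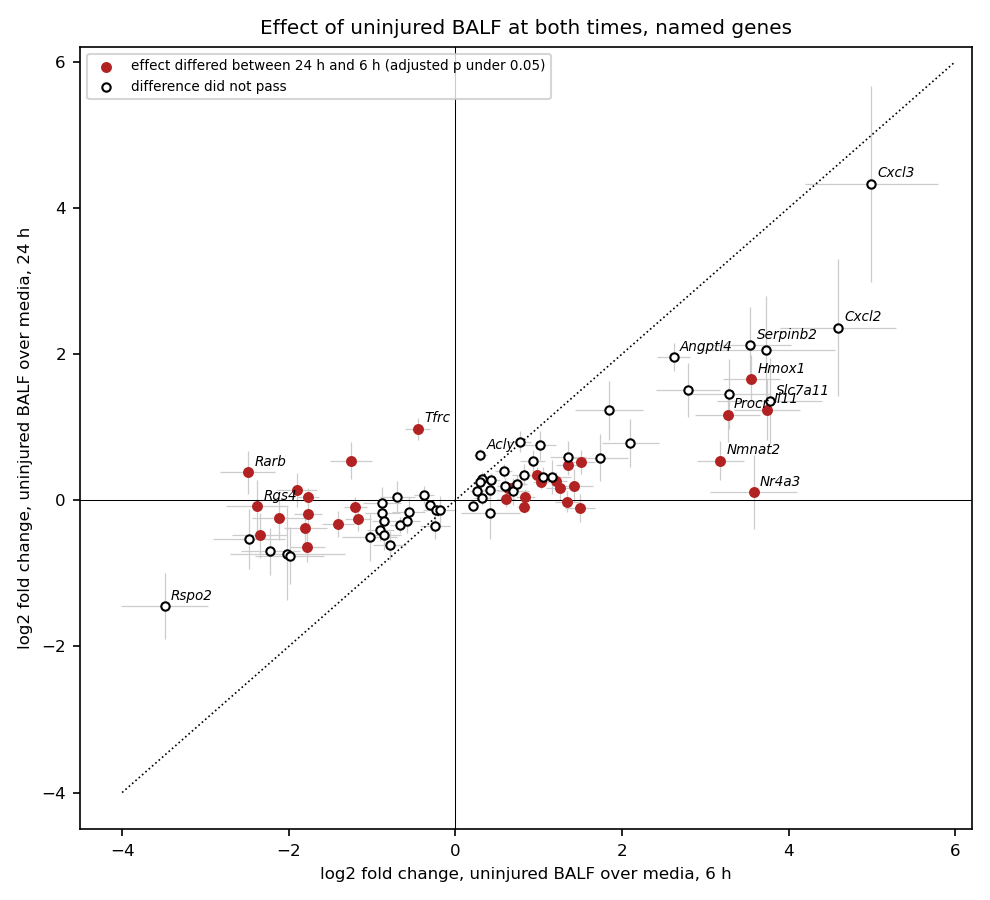
Log2 fold change of uninjured BALF over media at 6 h (x axis) and at 24 h (y axis) for the 85 named genes, with standard errors as bars, red points where the 24 h minus 6 h difference was called, and a dotted line where both would be equal. Nr4a3 lies at 3.58 and 0.11, Angptl4 at 2.62 and 1.96, and Tfrc at -0.45 and 0.98, and most of the genes were named for their 6 h change.

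Injured BALF at 6 h was set against the same uninjured BALF libraries. Both comparisons share those libraries, so their values are given side by side only. Injured against uninjured BALF called 3.43% of all tested genes. Cxcl1, Cxcl2 and Cxcl3 were higher in injured than in uninjured BALF, as were 1.97% of all tested genes, by 4.52, 5.32 and 3.42 (adjusted p = 3.0e-04, 6.6e-09 and 2.2e-04), where uninjured BALF over media gave 3.73, 4.59 and 4.99. Serpinb2 was higher by 2.67 in injured BALF than in uninjured BALF (adjusted p = 0.00039). Nr4a3 was lower in injured than in uninjured BALF, with a change of -2.69 (adjusted p = 0.0012), as was the NRF2 target Gsr, with -0.63 (adjusted p = 0.0063), where uninjured BALF over media gave 3.58 and 1.35. Hmox1 had a change of -0.91 that did not pass (adjusted p = 0.12).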

How the data were processed

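RNA from cultured mouse lung pericyte-like cells was sequenced in 36 libraries, 3 for each of 12 groups of treatment, sex and time. The authors deposited 1 table of counts per Ensembl gene, as whole numbers. STAR 2.5.2b, RSEM 1.2.31, DESeq2 and build GRCm38 are named in the submitters' processing notes without a stated role, so the counts may be rounded estimates. Per the labels' protocols the library kit keeps strand, but no source used here gives the strand setting of the counting, so reads of overlapping or near-identical genes may be shared between them. Gene symbols were found for 48435 of 48795 identifiers (99.3%).

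The counts as deposited were fitted with edgeR 4.0.16 in R 4.3.3 (TMM scaling, filterByExpr, quasi-likelihood test with Benjamini-Hochberg adjustment) over all 36 libraries and 15901 genes, which share 1 estimate of the spread (common coefficient of variation 22.5%, 24 residual degrees of freedom). The effect at 6 h averaged 2 contrasts of uninjured BALF over media, female and male. Its standard error was taken from the F statistic. CPM used TMM-scaled library sizes. The script was tested on simulated data. The 12 libraries of the comparison held 21284597 to 29797963 counts.

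The members, gene lists and tests were chosen with earlier results of these data known. Named genes were the 10 largest rises and 10 largest falls among called genes averaging at least 2 log2 CPM with 1 direction in both sexes, the 2 called genes with the lowest p in each of 36 lists, 7 fixed genes and the 3 lowest p-values in each direction for the time difference; other list members are examples chosen after their values were seen. Alternatives changed the scaling, the low-count filter, the tool (DESeq2 1.42.0), the libraries, the threshold and the block, and left out each library. Promoters came from RefSeq (GRCm38.p6, 300 bases, 32851 promoters of 27025 genes).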

Additional observations from a re-analysis of the deposited data

Results flagged for a closer look

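In 18 of the 170 groups of 6 libraries examined for the named genes, 1 library stood further from the others than Dixon's 95% limit allows, where chance gives about 1 in 20 (8.5). All 18 were libraries numbered 3. In male uninjured BALF number 3 these were Creld2 at 41.7 CPM and Kif11 at 14 CPM, and in female uninjured BALF number 3 they were Cxcl1 at 67.1, Ccl2 at 672, Relb at 32.7 and Cyp26b1 at 11.2 CPM. In female media number 3 they were Slc7a11 at 40.2, Serpinb2 at 30.1, Cd44 at 282, Hsph1 at 211, Ppard at 22.5, Lmod1 at 181, Aen at 80.3 and Pdgfrb at 556 CPM. In male media number 3 they were Tppp at 18.1, Dhrs3 at 40.8, Igsf10 at 30.6 and Hyal2 at 38.7 CPM. What sets the libraries numbered 3 apart was not tested.

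For 33 of the 85 named genes the effect of uninjured BALF differed between 24 h and 6 h by the test of the difference itself. That test called 312 of all tested genes (1.96%), and 3 with libraries 1 and 2 summed. Most named genes were picked for their 6 h change, which the test contains with a minus sign. Some were picked for a low p in the test itself, so the 33 and their signs are not read as a result. Among genes higher at 6 h, the difference (24 h minus 6 h, log2) was -3.48 for Nr4a3, -2.64 for Nmnat2, -2.5 for Il11, -2.1 for Procr, -1.89 for Hmox1 and -1.61 for Wnt11. It was -1.35 for Stk10, -1.22 for Dusp10, -1.09 for Clcf1, -0.99 for Crem, -0.95 for Relb, -0.91 for Jcad, -0.87 for Gsr, -0.8 for Ppard and -0.79 for Nfkb2. The smallest were -0.63 for Polr1b, -0.6 for Hspa8, -0.51 for Psmd11 and -0.47 for Hyal2. Among genes lower at 6 h, the difference was 2.87 for Rarb, 2.3 for Rgs4, 2.03 for Ankrd37, 1.88 for Tppp and for Dhrs3, 1.82 for Narf, 1.79 for Bnip3 and 1.57 for Adamts5. It was 1.43 for Tfrc, 1.42 for Kif26b, 1.14 for Id2, 1.12 for Cemip, 1.08 for Chac1 and 0.91 for Adamts1.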

How the results depend on the processing

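The 2923 genes called at 6 h became 3282 in DESeq2, 2913 with RLE scaling, 2952 with a filter at 1 CPM and 2277 without a filter. With upper-quartile scaling 2988 were called, 1346 higher and 1642 lower (45.0% higher against 57.4% with TMM), and the median change of all genes moved by -0.0616. At an adjusted p under 0.01, 1615 genes were called (1019 higher, 596 lower), and in a test against a fold of 1.2, 1092 (642 and 450). Female libraries alone gave 877 (581 higher, 296 lower, 302 at least 2-fold) and male libraries alone 989 (624, 365 and 341). With libraries 1 and 2 summed 1593 were called (1021 higher, 572 lower), 1566 of them among the 2923, and 66 of the 82 called named genes were called. Leaving out all libraries numbered 1 gave 1269 (769 higher, 500 lower, 350 at least 2-fold), all numbered 2 gave 941 (620, 321 and 311) and all numbered 3 gave 2401. Leaving out single libraries gave 2265 to 2829 called, 1354 to 1588 higher, 911 to 1242 lower and 515 to 656 at least 2-fold. No named gene changed direction under any alternative run. Calls of the named genes were lost for 24 in female and 23 in male libraries alone, for 28 without the libraries numbered 2 and for 0 in DESeq2.

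The 312 genes of the time difference became 183 without a filter, 638 in DESeq2, 80 at an adjusted p under 0.01, 3 with libraries 1 and 2 summed, 1 without the libraries numbered 1 and 7 without those numbered 2. Leaving out single libraries gave 182 to 461. The cause of these changes was not tested.

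The labels do not say what a replicate number marks. The deviations of same-numbered uninjured BALF and media libraries correlated above 0.1 for all 3 female numbers (0.358, 0.368 and 0.585) and for no male number (0.0428, 0.0981 and -0.0317), so the condition that every pair do so was not met and the block is given as an alternative. In 5 of 6 cases a library correlated best with its own number, a hint from the data and not from the design. With the replicate number as a block no named gene lost its call, and 3574 genes were called, or 4915 in the 12 libraries alone (2573 higher, 2342 lower), and 545 for the time difference. Depth limits Cxcl3, Cxcl2, Areg and Csf2, whose media counts were 15, 10, 28 and 3 over 6 libraries.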

Other observations

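Genes outside the lists were changed too, and those given here were chosen after their values were seen. Ccr1, a chemokine receptor best known from leukocytes, had 2.07 to 5.36 CPM in uninjured BALF (median 3.94) and 0.0709 to 0.762 CPM in media (median 0.414), a change of 3.18 ± 0.37 (edgeR adjusted p = 7.7e-07). Olr1, a receptor for oxidized lipoprotein, had 56.7 to 109 CPM in uninjured BALF (median 80.7) and 4.25 to 15.8 CPM in media (median 13), a change of 2.84 ± 0.37. Thbd, the thrombomodulin that works with the protein C receptor of Procr, had 341 to 995 CPM in uninjured BALF (median 837) and 143 to 275 CPM in media (median 225), a change of 1.73 ± 0.22. Acod1, which makes itaconate in activated macrophages, had 133 counts over the uninjured BALF libraries and 2 over the media libraries (adjusted p = 5.9e-05). The macrophage marker list summed to 56.2 to 82.8 CPM in uninjured BALF and 13.6 to 72.4 CPM in media. Its 1 called marker of 10 tested, Csf1r, had 13.9 to 17.2 CPM in uninjured BALF and 5.81 to 12 CPM in media. Over all tested genes 10.6% rose, so this count is not read as a result. The part of macrophages in Ccr1 and Acod1 was not tested.

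The other genes chosen in this way have single roles and stand for no group. Slc40a1, the iron exporter ferroportin, had 12.3 to 17.6 CPM in uninjured BALF (median 15) and 2.13 to 9.75 CPM in media (median 3.27), a change of 1.81 ± 0.37 (adjusted p = 0.001). Fgfr2, a receptor of fibroblast growth factors, had 8.93 to 20.3 CPM in uninjured BALF (median 13.1) and 27.4 to 46.1 CPM in media (median 38.4), a change of -1.48 ± 0.19. Osr1, a transcription factor of lung mesenchyme, had 19.3 to 22.8 CPM in uninjured BALF (median 19.8) and 38.8 to 49.8 CPM in media (median 43.8), a change of -1.1 ± 0.12. Odc1, which starts polyamine synthesis and is a known MYC target, had 383 to 671 CPM in uninjured BALF (median 554) and 173 to 235 CPM in media (median 200), a change of 1.42 ± 0.17.

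Reads of Bpifa1 and Scgb1a1, genes of airway secretory cells, were present in BALF-treated libraries. Bpifa1, a secreted airway epithelial protein gene, had 43 counts over the 6 uninjured BALF libraries at 6 h (2 to 15 each) and 0 over the 6 media libraries, at least 15.7-fold higher with a floor of 3 counts over the group (adjusted p = 0.0012). Over 6 libraries each it had 60 counts in injured BALF at 6 h, 312 in uninjured BALF at 24 h, 40 in injured BALF at 24 h and 0 in media at 24 h. Scgb1a1, the club cell secretoglobin gene, was not called at 6 h, with 4 counts in uninjured BALF, in 4 libraries, and 0 in media. It had 40 counts in injured BALF at 6 h, 57 in uninjured BALF at 24 h and 25 in injured BALF at 24 h. Reg3g and Sftpc had 1 count each in uninjured BALF and in media at 6 h, and 7 and 17 in injured BALF at 6 h. Whether these reads came from RNA carried in the lavage fluid was not tested.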
